A study of Mus musculus with 8 samples.

Results

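Chd7 sites were defined here as genomic regions found in both Chd7 ChIP-seq libraries of mouse oligodendrocyte precursor cells and in none of their control libraries. Chd7 peaks sharing 1 bp or more with a mock immunoprecipitation peak were dropped, and overlapping peaks of the 2 Chd7 libraries were merged into 1383 regions. Of these, 643 touched no peak of input 1 or input 2, and these 643 sites are described below. They are 46.5% of the regions (95% exact Clopper-Pearson interval 43.8 to 49.2). Intervals of this kind cover counting error over regions or genes only.

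All libraries came from wild-type mice at postnatal day 7, and none of them carried a knockout, a transgene or a treatment. The cells were O4+ cells collected by magnetic sorting, the tissue was labelled cortex and corpus callosum, and the labels call the cells OPCs (oligodendrocyte precursor cells). O4 is a sulfatide antigen that appears in late precursors and stays on immature oligodendrocytes, so the sort does not separate those stages. The Chd7 group held 2 libraries made with an anti-Chd7 antibody from Cell Signaling, the mock group 2 libraries made with rabbit IgG, and the input group libraries 1 and 2, which had no antibody. Mock 1 and input 1 are the labelled controls of Chd7 replicate 1. Input 2 is that of replicate 2, and mock 2 serves both replicate 2 and the 1 Chd8 library (Bethyl antibody), whose own input is input 3. Whether replicates came from separate animals or litters, and how many animals were pooled, is not stated in the labels. The extraction notes name the O4 antibody for isolating the complexes, against the antibody labels used here. The track name inside the Chd7 replicate 2 file carries another number, by which its input would be input 3. Every site was therefore also set against input 3.

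CHD7 is an ATP-dependent chromatin remodeler of the CHD family, which slides nucleosomes at promoters and enhancers. Haploinsufficiency of the gene causes CHARGE syndrome in people. In the oligodendrocyte lineage it is known as a partner of the transcription factor Sox10, and its loss impairs the survival of precursors and the onset of myelination.

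These sequences are shown because they lie under Chd7 sites at gene ends, where a promoter sequence of the same build was at hand. They are the 250 bases before the annotated start, 5′ to 3′ on the sense strand, from RefSeq (GRCm38.p6). Capitals mark matches to the motifs searched. Sox11 (chr12:27342719-27342968, minus strand) and Spred1 (chr2:117120821-117121070, plus strand) belong to lists of precursor identity and growth factor signalling genes. Rps19 (chr7:24884342-24884591, plus strand) encodes a ribosomal protein. Prpf19 (chr19:10894981-10895230, plus strand) and Gorasp2 (chr2:70661259-70661508, plus strand) are among the gene ends with the highest fold. The site covered all 250 bases at Sox11, Spred1 and Rps19, 132 at Prpf19 and 146 at Gorasp2.
Sox11: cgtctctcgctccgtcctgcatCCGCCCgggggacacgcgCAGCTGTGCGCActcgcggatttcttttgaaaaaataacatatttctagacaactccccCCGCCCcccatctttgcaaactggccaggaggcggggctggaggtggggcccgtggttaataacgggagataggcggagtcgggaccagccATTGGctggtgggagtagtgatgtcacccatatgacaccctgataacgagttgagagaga
Spred1: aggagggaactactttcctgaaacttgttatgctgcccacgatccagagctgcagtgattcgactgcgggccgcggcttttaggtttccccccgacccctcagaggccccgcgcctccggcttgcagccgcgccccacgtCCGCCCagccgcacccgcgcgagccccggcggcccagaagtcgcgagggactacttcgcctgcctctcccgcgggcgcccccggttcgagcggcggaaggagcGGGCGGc
Rps19: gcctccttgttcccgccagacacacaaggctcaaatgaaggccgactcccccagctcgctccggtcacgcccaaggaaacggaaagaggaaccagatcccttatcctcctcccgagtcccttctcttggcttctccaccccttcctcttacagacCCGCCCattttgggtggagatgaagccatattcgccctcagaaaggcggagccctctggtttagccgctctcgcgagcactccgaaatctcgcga
Prpf19: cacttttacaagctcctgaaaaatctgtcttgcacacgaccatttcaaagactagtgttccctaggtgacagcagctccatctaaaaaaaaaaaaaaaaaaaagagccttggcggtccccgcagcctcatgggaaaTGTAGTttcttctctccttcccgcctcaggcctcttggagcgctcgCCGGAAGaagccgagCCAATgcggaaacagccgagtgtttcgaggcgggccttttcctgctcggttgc
Gorasp2: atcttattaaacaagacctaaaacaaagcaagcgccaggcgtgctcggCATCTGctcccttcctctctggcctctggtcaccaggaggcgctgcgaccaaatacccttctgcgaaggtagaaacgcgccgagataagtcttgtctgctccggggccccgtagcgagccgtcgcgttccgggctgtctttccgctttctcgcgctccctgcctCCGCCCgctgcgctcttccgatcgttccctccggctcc

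Hes5, a transcriptional repressor induced by Notch, is shown only by 30 bases around each match to the RBPJ motif, because its promoter entry starts inside the widest gene boundary. The matches began 226 and 83 bases before the annotated start, at chr4:154960681-154960710 and chr4:154960824-154960853 (plus strand). Both lay inside 1 Chd7 site.
Hes5 first match: aatgagggcgagcgcgTTCCCACagcccgg
Hes5 second match: ccattggccgccgagtGTGGGAAcggccgc

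Promoters under Chd7 sites were rich in CpG. The promoter table held 21238 stretches of 300 bases (250 before and 50 after a start) for 17469 protein-coding genes, and 315 of them, of 273 genes, were touched by a site. The median number of CpG was 25 in the touched promoters and 13 in all promoters, and the median GC content was 63.0% against 56.3%. At least 10 CpG were found in 96.5% of touched promoters and 56.7% of all promoters. The 642 promoters under regions that touched an input had the same median, 25 CpG, and 98.3% of them held at least 10.

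The motifs searched, on both strands, were the GC box (GGGCGG), the CCAAT box (CCAAT), ETS (CCGGAAG), the NRF1 core (TGCGCA), CRE (TGACGTCA), SOX (ACAATG), YY1 (AAGATGGC), the ZFP143 core (ACTACA), the TATA box (TATAAA) and RBPJ (GTGGGAA). Also searched was the E-box CACGTG that MYC-type factors bind, the E-box CAGCTG common to myogenic and proneural factors, and the E-box CATCTG that neurogenic factors prefer. No motif contains the letters of another, although neighbouring matches can touch, as the E-box and NRF1 core at Sox11 do. A GC box was present in 70.8% of touched promoters (65.4 to 75.8) and 46.2% of all promoters. Among promoters with at least 10 CpG the shares lay closer, 73.0% of 304 touched and 72.4% of all 12051. The CCAAT box was found in 47.0% of touched promoters (41.4 to 52.7) and 38.2% of all, and among CpG-rich promoters in 46.7% against 36.7%. In the 92 touched promoters whose site lacked input 3 it was found in 31.5% (22.2 to 42.0), below the 38.2% of all promoters but within the counting error. The ZFP143 core was found in 13.3% (9.78 to 17.6) against 10.3%, within the counting error, and among CpG-rich promoters in 13.5% against 9.11%. The Prpf19 sequence holds a match 114 bases before the start. ETS letters were in 21.0% (16.6 to 25.9) against 11.6%, and among CpG-rich promoters in 21.7% against 18.5%. For the NRF1 core the shares were 18.4% (14.3 to 23.1) and 9.73%, and among CpG-rich promoters 19.1% and 15.6%. For YY1 they were 6.67% (4.17 to 10.01) and 3.05%, and among CpG-rich promoters 6.91% and 4.43%. SOX letters were found in 5.71% of touched promoters (3.42 to 8.88) and 11.0% of all, and the TATA box in 3.49% (1.76 to 6.16) and 12.6%. Among CpG-rich promoters the shares lay closer, 5.26% and 5.77% for SOX and 3.62% and 5.39% for the TATA box. RBPJ letters, matched 2 times at Hes5, were in 5.71% (3.42 to 8.88) of touched and 6.07% of all promoters. For CRE the shares were 5.08% (2.93 to 8.12) and 2.24%, and among CpG-rich promoters 5.26% and 3.47%. The E-box CACGTG gave 11.1% (7.86 to 15.1) and 7.84%, and among CpG-rich promoters 11.5% and 11.1%. CAGCTG gave 11.7% (8.41 to 15.8) and 15.6%, and among CpG-rich promoters 11.5% and 14.0%. CATCTG gave 11.1% (7.86 to 15.1) and 14.6%, and among CpG-rich promoters 10.5% and 9.72%. A match describes the letters in the window and is not a binding site. Promoters under regions that touched an input gave shares of 78.7% for the GC box, 50.8% for the CCAAT box, 22.0% for ETS and 19.3% for the NRF1 core. In the 92 touched promoters whose site lacked input 3, ETS letters were in 13.0% (6.93 to 21.7), near the 11.6% of all promoters. There the GC box was in 76.1%, the NRF1 core in 15.2% (8.58 to 24.2), YY1 in 7.61% and CRE in 5.43%.

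The control libraries set which regions became sites. The lists held 5282 and 6292 peaks for Chd7 replicates 1 and 2, 89 and 98 for the mocks, and 109486 and 178478 for inputs 1 and 2. Mock peaks touched 64 and 55 Chd7 peaks. Keeping these peaks gave 1432 regions in place of 1383 but 644 sites in place of 643, so the regions that a mock removed were mostly ones that an input would remove as well. Input 1 touched 545 regions (39.4%, 36.8 to 42.0) and input 2 touched 540 (39.0%, 36.5 to 41.7). Of the 740 regions excluded, 200 touched input 1 alone, 195 touched input 2 alone and 345 touched both. Few of the excluded regions lay on strong input peaks: 26 of 740 (3.51%, 2.31 to 5.11) touched an input peak whose fold over the caller's local background was at least 5. Input 3 touched 946 regions (68.4%, 65.9 to 70.8). It touched 304 of the 643 sites (47.3%, 43.4 to 51.2) and 642 of the 740 excluded regions (86.8%, 84.1 to 89.1), and 339 regions were free of all 3 inputs.

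Sites close to the limit of the rule were described by their edges. The Chd7 peaks that made a site shared between 2 and 1001 bp, with a median of 184, and 35 sites rested on an overlap of 50 bp or less. The nearest peak of input 1 or 2 was between 2 and 148642 bases away, with a median of 3662, and 30 sites had one within 200 bp. On the other side of the rule, excluded regions overlapped an input peak by 3 to 1812 bp, with a median of 295, and 216 of them by no more than 200 bp. Median folds of the 30 sites were 4.86 in replicate 1 and 3.51 in replicate 2. For the 216 regions they were 4.63 and 3.47.

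Gene ends held 285 of the 643 sites (44.3%, 40.4 to 48.3). A site counts as being at a gene end where its midpoint is no more than 1 kb from either boundary of a protein-coding gene. A further 226 sites (35.1%, 31.5 to 39.0) lay inside genes and 132 (20.5%, 17.5 to 23.9) between genes. The excluded regions lay more often at gene ends, 553 of 740 (74.7%, 71.4 to 77.8). Input peaks divide the regions into these classes, so the difference describes which regions the inputs removed. Excluded regions were also wider, with a median of 589.5 bp against 466 bp for the sites, and the part of width was not tested. Sites that also lacked input 3 lay there less often, 99 of 339 (29.2%, 24.4 to 34.4), than sites that touched input 3, 186 of 304 (61.2%, 55.5 to 66.7). The share of Chd7 sites at gene ends was therefore lower the more inputs a site had to lack.

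**Figure D1:**
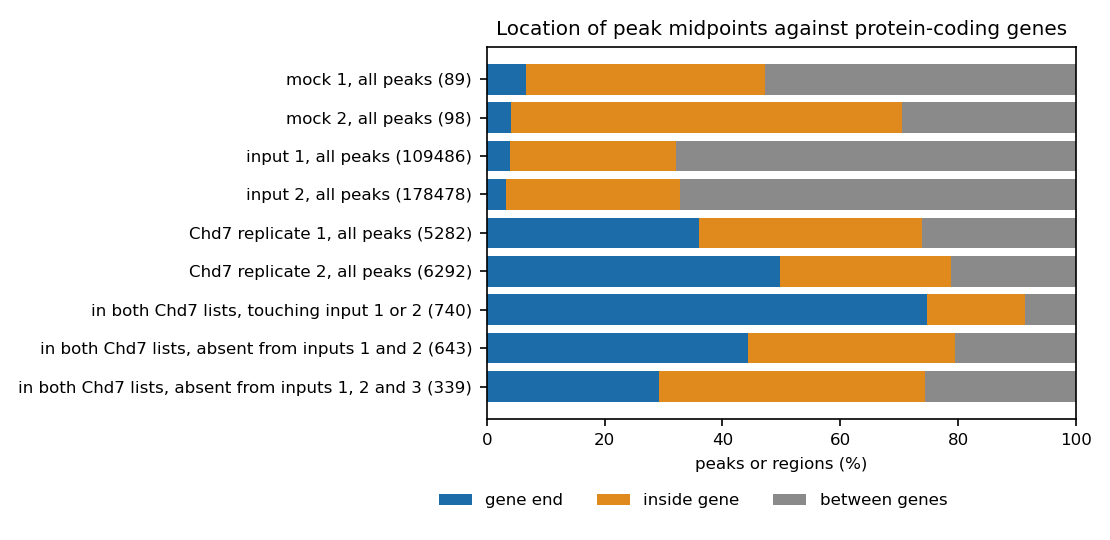
Share of peaks or regions (x axis, %) with the midpoint near a gene end, within a gene body or between genes, for the whole lists of the Chd7, mock and input 1 and 2 libraries and for 3 classes of regions found in both Chd7 lists; the number of peaks or regions stands in parentheses. Gene ends make up 36.0% and 49.7% of the Chd7 lists, 3.31% to 6.74% of the lists of the mocks and inputs 1 and 2, 74.7% of regions touching input 1 or 2, and 44.3% of the sites.

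In the whole lists, 36.0% of Chd7 replicate 1 peaks and 49.7% of replicate 2 peaks lay at gene ends. The mocks gave 6.74% and 4.08%, and inputs 1 and 2 gave 3.95% and 3.31%. Both Chd7 libraries stood above all 4 controls in this share. As counts, 1902 and 3130 Chd7 peaks lay at gene ends, 4326 and 5899 peaks of inputs 1 and 2, and 6 and 4 mock peaks. The inputs thus had more peaks at gene ends than the Chd7 libraries, in far longer lists. The Chd7 mean was 42.9% ± 9.71 (SD, n = 2) against 3.63% ± 0.457 for inputs (n = 2), a difference of 39.2 percentage points (two-sided exact permutation test over libraries, p = 0.333, the smallest that 2 against 2 allows). Against the mocks, at 5.41% ± 1.88 (n = 2), the difference was 37.5 percentage points with the same exact p = 0.333. A comparison of 2 libraries with 2 can therefore not pass a threshold of 0.05. Input 3 had 10.9% of its peaks at gene ends, above the other inputs.

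Sites far from any gene end were more frequent than among the excluded regions. Between 10 and 50 kb from the nearest gene end lay 142 sites (22.1%) and 50 excluded regions (6.76%). Beyond 100 kb lay 50 sites (7.78%) and 9 excluded regions (1.22%). Between 1 and 10 kb the shares were similar, 16.8% and 15.4%.

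**Figure D2:**
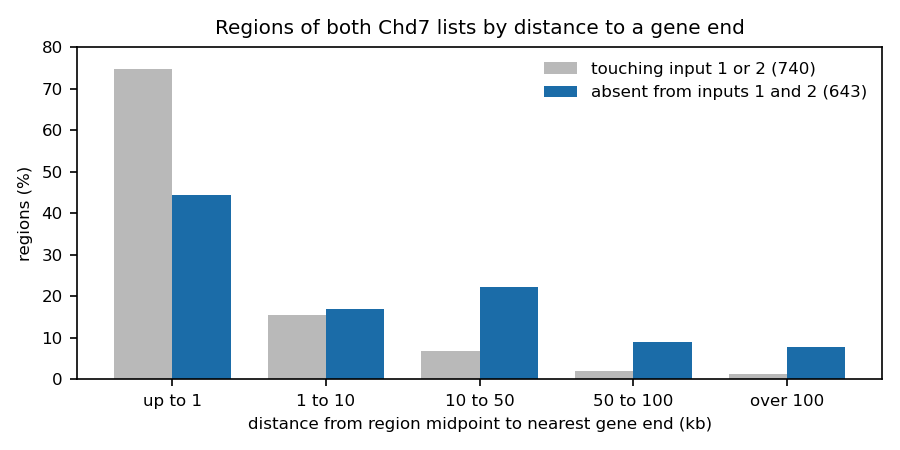
Share of regions found in both Chd7 lists (y axis, %) by distance from the region's midpoint to the nearest end of a protein-coding gene (x axis, kb), for the 740 regions touching input 1 or 2 (grey) and the 643 sites (blue). The grey bar is the higher one up to 1 kb, 74.7% against 44.3%, and the blue bar is the higher one in every bin beyond it.

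Fold is the height of a peak over the local background that the authors' caller estimated, and its scale differs between the libraries. Over the 643 sites the fold ranged from 4.15 to 8.33 with a median of 4.77 in replicate 1, and from 3.05 to 7.22 with a median of 3.39 in replicate 2. Most sites lay near the lower end of both lists, whose lowest folds were 4.15 and 3.03. In replicate 1, sites away from gene ends had a median fold of 4.92 and sites at gene ends 4.61, and a fold of at least 5 was reached by 44.4% of the former and 27.0% of the latter. In replicate 2 both medians were 3.39. Among the 64 sites with the highest fold in replicate 1, 11 lay at gene ends (17.2%, 8.90 to 28.7), against 45 of the 64 lowest (70.3%, 57.6 to 81.1). In replicate 2 the counts were 24 (37.5%, 25.7 to 50.5) and 29 (45.3%, 32.8 to 58.3), whose intervals overlap. The higher fold away from gene ends was thus seen in replicate 1 and was within the counting error in replicate 2. Across the 643 sites the ranks of fold in both libraries were weakly related (Spearman rho 0.11, across sites that share their libraries), and 37 of the 128 highest sites in replicate 1 (28.9%) were among the 128 highest in replicate 2.

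**Figure D3:**
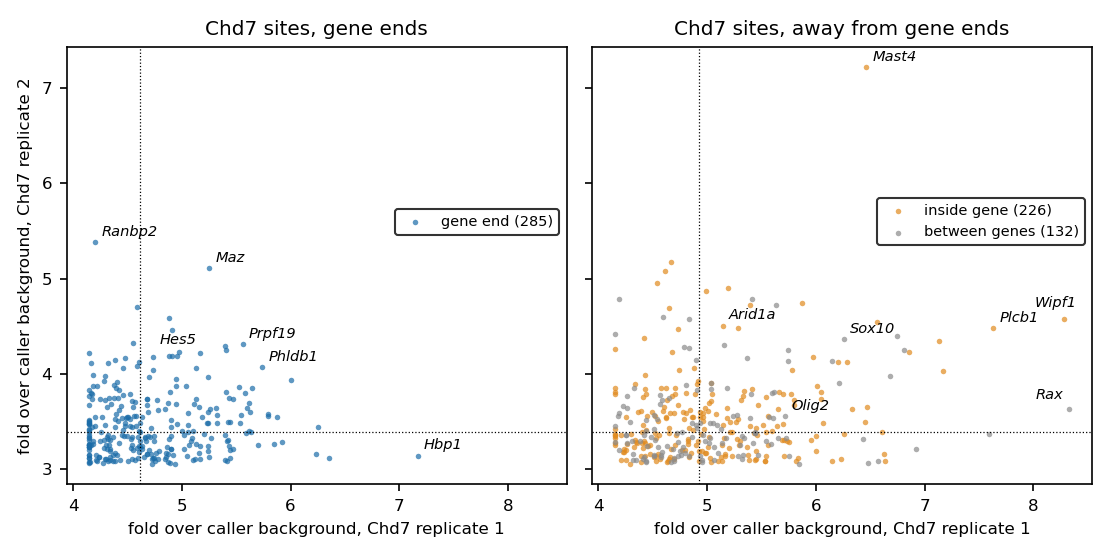
Fold over the caller's background of each Chd7 site in replicate 1 (x axis) and replicate 2 (y axis), for the 285 sites at gene ends (left) and the 358 away from them (right); dotted lines mark the medians of each panel, and some named genes are written in. Mast4 stands apart in replicate 2, with a fold of 7.22, and the points with a replicate 1 fold above 7 are, except Hbp1, in the right panel.

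The site with the highest mean fold lay inside Mast4, which encodes a microtubule-associated serine/threonine kinase. It spans chr13:103114290-103114564, 220.67 kb after the start of the gene, with a fold of 6.46 in replicate 1 and 7.22 in replicate 2. It was the site highest in replicate 2, touched no peak of input 3, and was the single site left when both Chd7 peaks had to reach a −log10 q of at least 5.

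Among the 10 sites with the highest mean fold away from gene ends, 6 further ones lay inside genes. The site in Wipf1, whose product binds the actin regulator WASP, lay 85.25 kb after the start (chr2:73444064-73444420) with folds of 8.28 and 4.57 in replicates 1 and 2. The site in Plcb1, a phospholipase C, lay 367.42 kb after the start (chr2:135153394-135153764) with folds of 7.63 and 4.48. Both are long genes, and both sites lay deep inside them. The site in Ampd3, an AMP deaminase, had folds of 7.13 and 4.34, and that in Alpk2, an alpha-kinase gene, 7.17 and 4.03. The site in Zfp607b, a zinc-finger gene, had folds of 6.56 and 4.55, and that in Arhgap31, which encodes a GTPase-activating protein for Rac and Cdc42, 6.86 and 4.23. None of these touched a peak of input 3. The other 3 lay between genes. The site 12.6 kb from Rax, a retinal homeobox gene, had the highest fold of all sites in replicate 1, 8.33, and 3.63 in replicate 2. The site 31.1 kb from Mycn, the MYC-family gene, had folds of 6.81 and 4.25, and the site 13.6 kb from Psmg4, a proteasome assembly chaperone gene, 6.74 and 4.40. The sites near Mycn and Psmg4 touched a peak of input 3.

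At gene ends the highest mean fold lay at the neighbouring boundaries of Maz, a zinc-finger transcription factor gene, and Kif22, a kinesin gene. This site (chr7:127027176-127027656) had folds of 5.25 and 5.11 in replicates 1 and 2. The site at Hbp1, which encodes an HMG-box repressor, had the highest replicate 1 fold at any gene end, 7.17, but 3.14 in replicate 2. The reverse was seen at Ranbp2, a nuclear pore gene, with 4.20 and 5.38. Prpf19, a ubiquitin ligase of the spliceosome, had folds of 5.56 and 4.31, Gorasp2, a Golgi stacking protein, 5.41 and 4.25, and Prkaca, the catalytic subunit of protein kinase A, 5.64 and 3.85. Phldb1, which encodes a pleckstrin-homology domain protein, had 5.74 and 4.07, and Trappc5, a vesicle tethering subunit, 6.25 and 3.44. Sez6l, a membrane protein gene, had 5.39 and 4.29. Adamts4, a proteoglycan-cleaving protease, had a site 751 bp outside its boundary with 6.00 and 3.93. Of these 10 sites, those at Maz, Adamts4, Phldb1, Gorasp2 and Prkaca touched no peak of input 3, and those at Hbp1, Prpf19, Trappc5, Sez6l and Ranbp2 touched one.

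For counts of genes, a gene had a site at its end where a site touched the 1 kb window around either boundary, and at its locus where a site touched the gene body or 10 kb on either side. Of 21887 protein-coding genes, 343 had a site at an end, which is 1.57%, and 753 at the locus, which is 3.44%. Regions that touched input 1 or 2 lay at an end of 715 genes (3.27%). With sites free of all 3 inputs the counts were 118 genes (0.539%) and 344 genes (1.57%). The strand was known for 294 of the 343 genes. The site lay at the start alone in 280 of them, at the far end alone in 12 and at both in 2 (start alone or both 95.9%, 93.0 to 97.9). Of the 293 sites that touched an end window, 50 (17.1%) touched windows of more than 1 gene, so genes are not independent of each other. Loci with a site were longer, with a median of 50.5 kb against 37.2 kb for all genes.

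The 14 gene lists were chosen with earlier results of these data known, so their ranking is a description only. Genes of precursor identity held the largest share of sites at gene ends among the 14 lists examined. Of 32 such genes, 6 had a site at an end (18.8%, 7.21 to 36.4), beside 1.57% of all protein-coding genes, and 8 at the locus (25.0%, 11.5 to 43.4), beside 3.44%. With sites free of all 3 inputs the count at ends was 5 of 32 (15.6%, 5.28 to 32.8), beside 0.539% of all genes. With every peak of inputs 1 and 2 kept at least 1 kb away it was 3 of 32, beside 1.19%, and with a reciprocal overlap of 50% between the Chd7 peaks 1 of 32, beside 0.626%. Input peaks themselves lay at the ends of 18.8% (input 1), 25.0% (input 2) and 56.3% (input 3) of the same 32 genes, beside 21.9%, 28.4% and 45.2% of all genes. Before regions touching input 1 or 2 were removed, 7 of these 32 genes (21.9%) had a region at an end. Cholesterol synthesis (25.0%) and RNA splicing (22.7%) then had larger shares.

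The 6 genes were Hes5, Hes1, Sox11, Gpr17, Bcan and Dscam. Hes5 and Hes1 encode basic helix-loop-helix repressors that Notch signalling induces. Both were counted as precursor identity genes, and the list of Notch, Wnt and Hedgehog genes did not hold them. The site at Hes5 (chr4:154960385-154961078) had folds of 4.73 and 4.18 in replicates 1 and 2 and touched a peak of input 3. A second site (chr4:154964012-154964706) lay 1.6 kb beyond the gene, at the end of its neighbour Pank4, with folds of 5.85 and 3.26 and no peak of input 3. The site at Hes1 (chr16:30065043-30065789) had folds of 5.16 and 3.65. Sox11 encodes a SoxC transcription factor, and its site (chr12:27342698-27343011) had folds of 4.74 and 3.12, both below the medians of all sites. Gpr17, a receptor of committed precursors, had folds of 4.95 and 3.48. Bcan, which encodes the proteoglycan brevican, had a site (chr3:88002221-88002739) with folds of 5.05 and 3.38, and Dscam, a cell adhesion molecule, one (chr16:97171533-97171956) with 4.48 and 4.16. At Hes1, Sox11, Gpr17, Bcan and Dscam no peak of input 3 was touched.

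At the locus, 2 more genes of precursor identity had a site. Cspg4, which encodes the NG2 proteoglycan, had one 3.4 kb after its start (chr9:56868170-56868842) with folds of 5.00 and 3.23 in replicates 1 and 2. Olig2, a transcription factor that specifies the lineage, had one 8.13 kb after its start (chr16:91233368-91233986) with 5.71 and 3.56. Both touched a peak of input 3.

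The Olig2 and Olig1 neighbourhood held 3 sites. Beside the one above, a site 33.1 kb from Olig2 on the far side from Olig1 (chr16:91191315-91192450) had folds of 5.85 and 3.05 and touched input 3. A site 33.1 kb beyond Olig1 (chr16:91305075-91306408) had folds of 5.27 and 3.57 and touched no input. At the start of Olig2 the Chd7 replicate 2 list held peaks where replicate 1 held none, so no site arose there. The nearest site to Sox10, the transcription factor named above as a partner of CHD7, lay 28.9 kb outside the gene (chr15:79193344-79193651). It had folds of 6.25 and 4.36, ranked at place 13 of 643 by mean fold, and touched none of the 3 inputs, although a peak of input 3 lay 9 bases from it. Among the other sites named here as free of input 3, those at Ntrk3, Sox11, Phldb1, Bcan and beyond Olig1 had a peak of input 3 between 106 bases (Ntrk3) and 991 bases (Bcan) away.

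**Figure D4:**
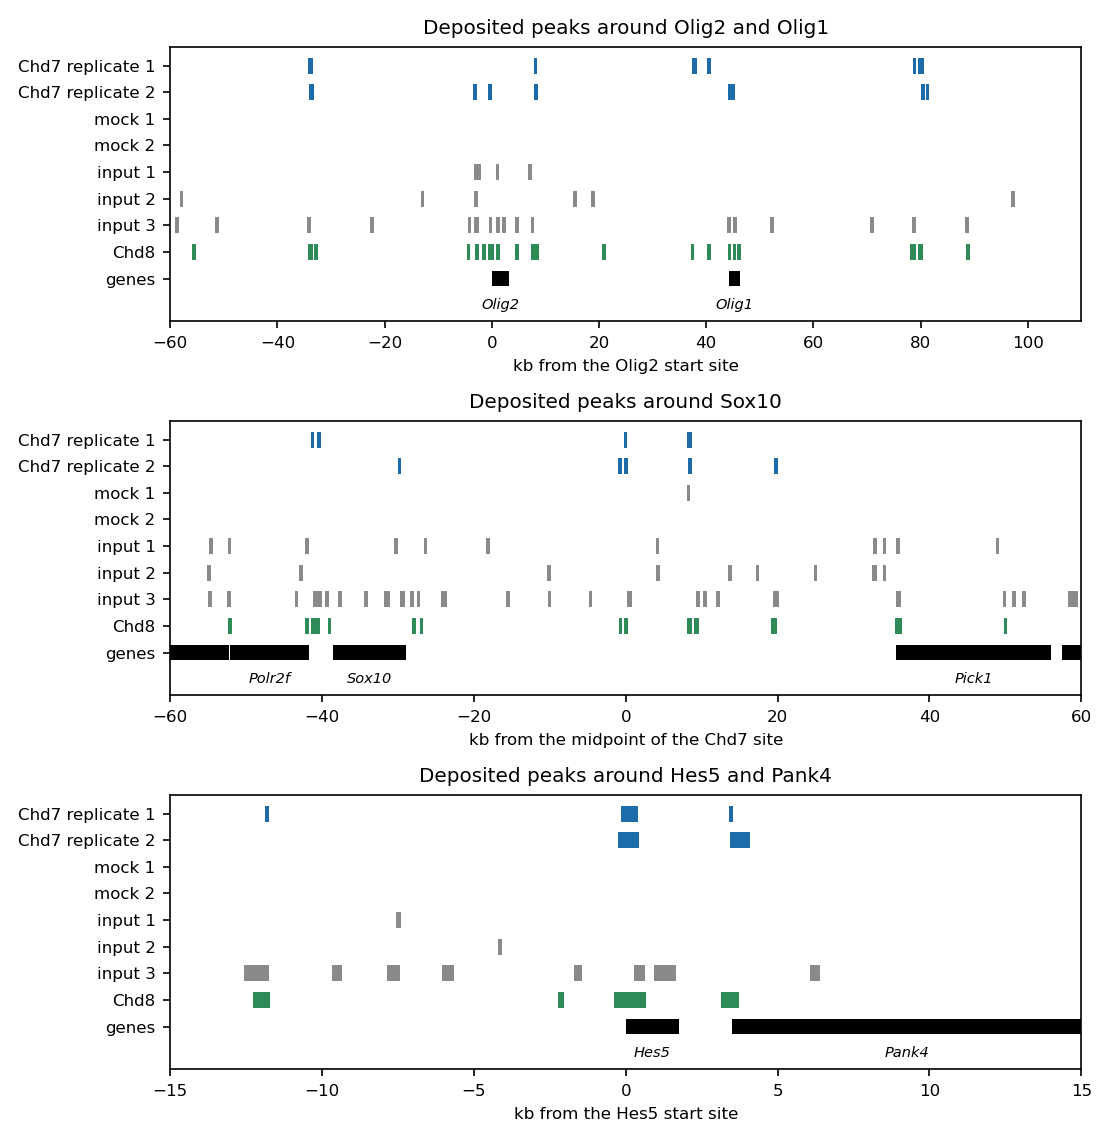
Deposited peaks of all 8 libraries around Olig2 and Olig1, Sox10, and Hes5 and Pank4, each row 1 library, with the bodies of protein-coding genes in black; the x axis is the distance in kb from the start of Olig2 or Hes5, or from the midpoint of the Chd7 site near Sox10 (peaks narrower than the line are widened to be visible). Blue marks that stand above each other in both Chd7 rows, with no grey mark of input 1, input 2 or a mock below them, are the sites of the text; near Sox10 a mock 1 peak lies under another pair of Chd7 peaks, which was dropped.

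Genes of oligodendrocyte differentiation and myelin had no site at an end (0 of 40, upper limit 8.81%), beside 1.57% of all genes, and 3 of 40 had one at the locus (7.50%, 1.57 to 20.4), beside 3.44%. Cldn11, the tight junction protein of myelin, had a site 2.1 kb beyond the gene (chr3:31166433-31166843) with folds of 5.02 and 3.49 in replicates 1 and 2. Zeb2, a zinc-finger factor needed for myelination, had a site 14.17 kb after its start (chr2:45103180-45103368) with 4.42 and 4.37, and neither touched input 3. Sirt2, a deacetylase of myelin, had a site 7.62 kb after its start with 4.69 and 3.11, which touched input 3. The nearest site to Myrf, the transcription factor that drives myelin genes, lay 25.0 kb away at the end of Fads1, with folds of 5.11 and 3.40. This site touched a peak of input 3. Pdgfra, Mbp, Nkx2-2, Chd7 and Chd8 had no site within 50 kb.

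RNA splicing genes had a site at an end in 3 of 44 cases (6.82%, 1.43 to 18.7) and ribosomal protein genes in 3 of 57 (5.26%, 1.10 to 14.6), beside 1.57%. The splicing genes were Snrpe, Rbm39 and Hnrnpc, and none of the 3 kept a site when input 3 was also required to be absent. Rbm39, a splicing coactivator, had folds of 4.72 and 3.43 in replicates 1 and 2. At loci, Srrm2, a spliceosome scaffold, had folds of 4.98 and 3.64, and Luc7l3 5.08 and 3.30, at the end of its neighbour Ankrd40. The Srrm2 site touched a peak of input 3 and the Luc7l3 site did not. The ribosomal genes were Rps19 (5.53 and 3.48), Rps14 (5.41 and 3.09) and Rps27a (4.57 and 3.71), and Rps19 and Rps27a touched no input 3 peak. The Rps14 site touched one.

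Chromatin regulators had a site at an end in 1 of 58 genes (1.72%, 0.0436 to 9.24), near the 1.57% of all genes, and at the locus in 4 of 58 (6.90%, 1.91 to 16.7), beside 3.44%. Smarca2, an ATPase of the SWI/SNF complex, had a site at its start (4.70 and 3.34) and another 1.8 kb inside (5.30 and 3.26). Both Smarca2 sites touched a peak of input 3. Arid1a, a subunit of the same complex, had a site 2.25 kb after its start (chr4:133754358-133754687) with 5.14 and 4.51, and touched no input 3 peak. Wdr5, a subunit of histone methyltransferase complexes, had a site 3.6 kb beyond the gene with 5.46 and 3.15, which touched no peak of input 3. The Notch, Wnt and Hedgehog list did not hold Hes5 and Hes1, which were counted with precursor identity. Its genes had no site at an end (0 of 47, upper limit 7.55%) and 2 at the locus (4.26%, 0.520 to 14.5). These were Notch2, a receptor, with 5.27 and 3.49, and Axin2, an inhibitor of Wnt signalling, with 4.96 and 3.59. Neither site touched a peak of input 3. Cholesterol synthesis genes had no site at an end (0 of 24, upper limit 14.2%) and 1 at the locus, Insig2, which holds back sterol synthesis, with 4.44 and 3.79. The Insig2 site touched a peak of input 3.

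With inputs 1 and 2 not considered, several of these lists had more regions of both Chd7 libraries at gene ends, beside 4.83% of all genes. Chromatin regulators then counted 9 of 58 (15.5%), RNA splicing 10 of 44 (22.7%), cholesterol synthesis 6 of 24 (25.0%) and Notch, Wnt and Hedgehog 5 of 47 (10.6%). Precursor identity counted 7 of 32 (21.9%), close to its 6 with the inputs considered, and at the locus 9 of 32 (28.1%), beside 8.45% of all genes. Over all protein-coding genes the input removal took 714 of 1057 (67.5%). It took 8 of 9, 7 of 10, 6 of 6 and 5 of 5 genes from the first 4 lists, 2 of 5 from ribosomal proteins and 1 of 7, Matn4, from precursor identity.

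**Figure D5:**
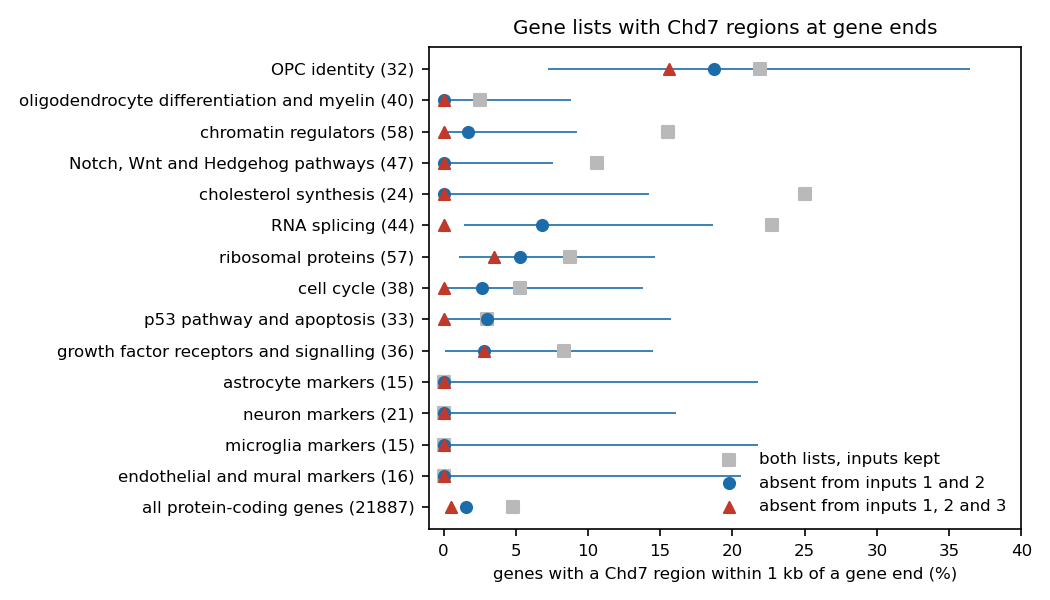
Share of the genes of each list (x axis, %) with a Chd7 region within 1 kb of a gene end, with inputs kept (grey squares), absent from inputs 1 and 2 (blue circles, lines 95% Clopper-Pearson intervals) and absent from all 3 inputs (red triangles); list sizes are in parentheses and the bottom row is all 21887 protein-coding genes. The precursor identity row keeps its 3 marks close together, from 15.6% to 21.9%, whereas cholesterol synthesis goes from 25.0% to 0. The marks of a row differ only by the input peaks that removed regions, and the lists differ in input peaks at gene ends.

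In 3 further lists 1 gene each had a site at an end (2.63%, 3.03% and 2.78%), near the 1.57% of all genes. Cell cycle had 1 of 38, Cdt1, a replication licensing factor, with folds of 4.15 and 3.47 in replicates 1 and 2. The p53 and apoptosis list had 1 of 33, Bcl2l11, the pro-apoptotic Bim gene, with 4.61 and 3.39. Growth factor signalling had 1 of 36, Spred1, an inhibitor of the MAP kinase pathway, with 5.60 and 3.64, and at the locus also Ntrk3, the receptor of neurotrophin-3, with 4.39 and 3.61. Spred1 and Ntrk3 touched no input 3 peak, whereas the sites at Cdt1 and Bcl2l11 touched one.

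Markers of the other cells of the tissue had no Chd7 site. Of 15 astrocyte, 21 neuron, 15 microglia and 16 endothelial or mural genes, none had a site at an end or at the locus, with upper limits of 21.8%, 16.1%, 21.8% and 20.6%. These limits lie above 1.57% and 3.44%, so at these list sizes a share like that of all genes could not be told from 0. Of 7 defining precursor markers 3 had a site at the locus, Cspg4, Olig2 and Gpr17, beside 3.44% of all protein-coding genes. Pdgfra, Olig1, Sox10 and Ptprz1 had none there. At an end 1 of the 7 had a site, Gpr17, beside 1.57%. The Cspg4 and Olig2 sites touched a peak of input 3. Of 6 defining oligodendrocyte markers none had a site at the locus.

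Nearly all sites were also in the list of the 1 Chd8 library. Of the 643 sites 619 touched a Chd8 peak (96.3%, 94.5 to 97.6), and among the excluded regions 724 of 740 did (97.8%, 96.5 to 98.8). All sites given above with their folds touched one. For input-free peaks of a single Chd7 list, with no demand of recurrence, the shares were lower, 75.1% for replicate 1 and 50.6% for replicate 2. The 24 sites without a Chd8 peak comprised 8 at gene ends and 16 away from them, with median folds of 4.38 and 3.30. Chd8 had no replicate, and its mock is also that of Chd7 replicate 2.

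Peaks found in 1 Chd7 list alone lay less often at gene ends than the sites. Replicate 1 had 3819 such mock-free peaks, of which 3341 (87.5%) touched no peak of inputs 1 and 2, and 22.1% of these lay at gene ends. Replicate 2 had 4848, of which 2878 (59.4%) were free of both inputs, and 36.1% of these lay at gene ends. For the input-free peaks found in both lists the shares at gene ends were 48.8% in replicate 1 and 45.0% in replicate 2.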

How the data were processed

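Each of the 8 libraries has 1 deposited list of broad peaks (mm10). Per the submitters' processing notes, Bowtie2, SAMtools, Picard and MACS were used. Their versions and settings, and the caller's control, are not given in the sources used. Per peak, the authors deposited a score, which is 10 times the −log10 q, the fold (a ratio over the caller's local background), the −log10 p and the −log10 q. Peaks are numbered beyond the count in each list, so peaks had been dropped before deposit, and to an unlike extent. The highest number was 6319 for the 5282 peaks of Chd7 replicate 1 and 69048 for the 6292 of replicate 2. For inputs 1, 2 and 3 it was 135473, 224991 and 264855, for 109486, 178478 and 91628 peaks. The lowest −log10 q was 1.48 in Chd7 replicate 1 and 1.30 in replicate 2. Fold moves with the caller's control and the depth of a library, so it was given per library and averaged only to rank sites. Read depth is unknown, and the number of peaks limits the precision.

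Peaks were compared by overlaps of at least 1 bp with Python 3.11.15, pandas 2.3.3 and SciPy 1.17.1, and the overlap code was tested on simulated data. A site's fold in a library is that of its highest peak there. Boundaries of 21887 protein-coding genes came from RefSeq, and strands and promoters from a RefSeq table (GRCm38.p6) of 17492 genes. Exons were not used here, so exonic and intronic positions were not told apart. Shares carry Clopper-Pearson intervals with a confidence level of 95%, and libraries were compared by an exact permutation test. No test was run over genes or regions.

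The members, the 14 gene lists (475 distinct genes, all matched by symbol) and the tests were chosen with earlier results of these data known. Named were the 10 sites with the highest mean fold at gene ends and the 10 away from them, every precursor identity and oligodendrocyte differentiation gene with a site, up to 3 members of each other list, and in every case Chd7, Chd8, Mbp, Myrf, Nkx2-2, Olig1, Olig2, Pdgfra and Sox10. Snrpe, Hnrnpc, Matn4, the genes whose promoters are printed, and the NRF1 and ZFP143 cores, which replaced longer forms, were chosen after values were seen. Alternatives were stricter peaks, other overlap rules, other uses of the mocks and inputs, sex chromosomes left out, a 5 kb window and each library left out in turn.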

Additional observations from a re-analysis of the deposited data

How the results depend on the processing

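The number of sites moved with the strength and overlap asked of the Chd7 peaks, with the demand of both Chd7 lists and with the use of the inputs. In place of 643 there were 156 sites when Chd7 peaks needed a −log10 q of at least 2, 1 at a −log10 q of at least 5, 70 with a fold of at least 4 in both libraries, 285 with a reciprocal overlap of 50%, 339 with input 3 removed too, 1357 when only input peaks with a fold of at least 5 counted, and 380 with inputs 1 and 3 in place of 1 and 2. The fold limit of 4 removed peaks of Chd7 replicate 2 only, since the lowest fold in replicate 1 was 4.15. Leaving out each library in turn gave 643 to 4078 sites, the highest numbers being those of a single Chd7 list. In the same order, the share of regions that became sites was 41.5%, 20.0%, 37.0%, 52.3%, 24.5%, 98.1% and 27.5%, against 46.5%. It was 49.2% with each list cleared of its own input only, 36.9% with no input peak within 1 kb, and 46.2% to 78.2% with a library left out. The share of sites at gene ends was 35.9%, 0% (of 1 site), 37.1%, 39.6%, 29.2%, 61.2% and 33.7%, against 44.3%. It was 54.0% with a 5 kb window and 27.0% to 52.5% with a library left out. Genes with a site at an end numbered 68, 0, 31, 137, 118, 1049 and 154, against 343, and 343 to 1583 with a library left out. The share of sites touching Chd8 was 98.1% at a −log10 q of at least 2, 100% of 1 site at 5, 92.9% with a fold of at least 4, 97.7% with strong input peaks only, and 50.6% to 96.9% with a library left out, against 96.3%. Precursor identity genes with a site at an end made up 6.25% of the 32 at a −log10 q of at least 2 and with a fold of at least 4, 0% at 5 and 3.12% with a reciprocal overlap of 50%, against 18.8%; the cause was not tested for any of these, beyond the fewer peaks that each stricter choice leaves. With a library left out it was 18.8% to 34.4%, beside 1.57% to 7.23% of all protein-coding genes. The 34.4%, from Chd7 replicate 1 alone, stood beside 6.05%. For all genes the share was 0.311% at a −log10 q of at least 2 and 0.142% with a fold of at least 4. It was 0% at a −log10 q of at least 5 and 0.626% with a reciprocal overlap of 50%, against 1.57%. Of the 53 sites given by name, 27 were lost at a −log10 q of at least 2, 52 at 5, 33 with a fold of at least 4, 27 with a reciprocal overlap of 50%, 21 with input 3 removed, 21 with inputs 1 and 3, and 13 with no input peak within 1 kb. The alternatives that only relax a demand, such as leaving out a library, can lose none by construction. For the share of peaks at gene ends per library, differences within pairs of the same number (a replicate block) were 32.1 and 46.4 percentage points, mean 39.2, with a 2-sided exact permutation p of 0.5, the smallest that 2 pairs allow. The overlap counts come from no fitted model, so no block was fitted to them. Depth limits are unknown, since the lists hold no read counts.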

Other observations

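Chd7 sites were unevenly spread over chromosomes. The X chromosome held 1 site for its 966 protein-coding genes, whereas the autosomes held between 17 (chromosome 14) and 55 (chromosome 7), or 20.0 to 43.1 sites per 1000 protein-coding genes. Before the input removal the X held 6 regions. The sex of the animals is not stated in the labels, and its part in the count was not tested. Of the 643 sites, 33 neighbouring pairs lay less than 50 kb apart and 7 less than 10 kb apart, so most sites stood alone.

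Some sites lay on non-coding genes. Long non-coding RNA genes were touched by 94 sites (14.6%), 33 of which lay between protein-coding genes, and 28 of the 358 sites away from protein-coding gene ends lay within 1 kb of the end of such a gene. The other non-coding genes touched were 1 tRNA gene, the microRNA gene Mir1945 and Rpph1, which encodes the RNA of ribonuclease P. No site touched an snRNA, snoRNA or rRNA gene.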
